A study of Homo sapiens with 5 samples.

Results

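The genes described here encode the nuclear part of the mitochondrial respiratory chain and ATP synthase. They were chosen by symbol among protein-coding genes, as those named NDUFA, NDUFB, NDUFC, NDUFS or NDUFV with a number (complex I), SDHA to SDHD (complex II), UQCR (complex III), COX4 to COX8 with a letter (complex IV) and ATP5 (complex V). This gave 87 of the 60504 genes measured, with 39 in complex I, 4 in complex II, 9 in complex III, 15 in complex IV and 20 in complex V. DAOY, an established human medulloblastoma cell line of the sonic hedgehog (SHH) subtype, was transfected for 48 h. The siRNA, at 20 nM, was si-NC, which has no target and served as control (2 libraries), or si-circ_63706, directed against the circular RNA circ_63706 of the PCNT gene (3 libraries). All 5 libraries come from this 1 line and all had the transfection reagent. The study compared the groups to find which genes depend on circ_63706. The labels do not say whether the libraries of a group came from separate cultures, so the p-values measure the spread between these libraries, which may be technical, and the sources used here do not say which siRNA against circ_63706 each library received.

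The respiratory chain passes electrons from NADH, through complex I, or from succinate, through complex II, to complexes III and IV and then to oxygen. Complexes I, III and IV pump protons across the inner mitochondrial membrane, and complex V lets them back through a rotating ring to make ATP. Most subunits are encoded in the nucleus and imported, while the mitochondrial genome encodes a few subunits of complexes I, III, IV and V and none of complex II, so that the complexes need transcripts from both genomes.

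Values are TPM, the transcripts of a gene per 1000000 transcripts of all kinds in a library, which is a level corrected for transcript length. Fold changes are differences of log2(TPM + 1) between si-circ_63706 and si-NC with a standard error (SE), and a gene is called lower or higher where its limma p-value, adjusted over all 12710 genes with a mean of at least 1 TPM, is under 0.05. TPM shares out a fixed total, and protein-coding genes took 29% of it in both si-NC libraries against 25.2%, 26.2% and 26.9% in the si-circ_63706 libraries, which also had more genes above 0 (33905 to 34347 against 29253 to 29748). The median fold change of all tested genes was -0.16 on the log2 scale. Each call is therefore also given after centring, in which every library was scaled so that its median gene with a mean of at least 10 TPM was level with the other libraries. The part of this shift in the fold changes as deposited was not tested beyond that. Of 10 SHH and granule neuron progenitor markers, 6 (PTCH1, HHIP, SFRP1, ZIC1, ZIC2 and EYA1) were at 1 TPM or more in every library, while ATOH1 was at 0.03 TPM or less and GLI1 at 0.29 to 0.49 TPM. The leukocyte marker CD68 was at 24.67 to 32.8 TPM, and PTPRC, CD3E, EPCAM, CDH1 and PECAM1 were at 0.35 TPM or less. The PCNT gene was at 9.96 and 10.38 TPM with si-NC and at 8.8, 7.99 and 7.54 TPM with si-circ_63706. This level does not separate linear PCNT from circular RNA of the same gene. No level was given for circ_63706 itself, so its knockdown was not checked in these libraries. By qPCR, the paper reports that siRNAs against circ_63706 removed nearly all of it in DAOY and left PCNT unaffected.

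Transcripts of the respiratory chain were lower after si-circ_63706 for 36 of 79 tested genes (45.6%), and none was higher. Among all tested genes 35.4% were lower and 4.16% higher, and among tested protein-coding genes 37.7% were lower. With a minimum mean of 5 TPM 3311 of 7476 genes were lower, 40 of them in this set. UQCRHL (mean 2.06 TPM) and ATP5J2-PTCD1 (2.75 TPM) were then not tested. Both the level of the genes and the number of genes adjusted over differ in that setting. The median fold change of the 79 genes was -0.16, the same to 2 decimals as that of all genes and of protein-coding genes. After centring, 14 were lower, 13 higher and the median was 0.00 (-0.0025), where 15.2% of all genes were lower and 12.3% higher. In 56 of the 79 genes each si-circ_63706 library was below each si-NC library, and in 4 each was above, where this held for 55.2% and 8.93% of all tested genes. Of tested protein-coding genes, 57.9% had each si-circ_63706 library below each si-NC library. The median of the set was thus close to that of all genes, while its members differed among themselves. In bulk RNA, fewer cells with a transcript and less of it per cell cannot be told apart. Without si-NC replicate 1 the count was 14 lower genes and without si-NC replicate 2 it was 16, and all of them were among the 36. ATP5B, ATP5G1, ATP5G2, ATP5G3, COX5A, COX8A, NDUFA8, NDUFA9, NDUFB11 and SDHA, 10 genes in all, were lower in each of the 15 settings tried, the reported one included.

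**Figure D1:**
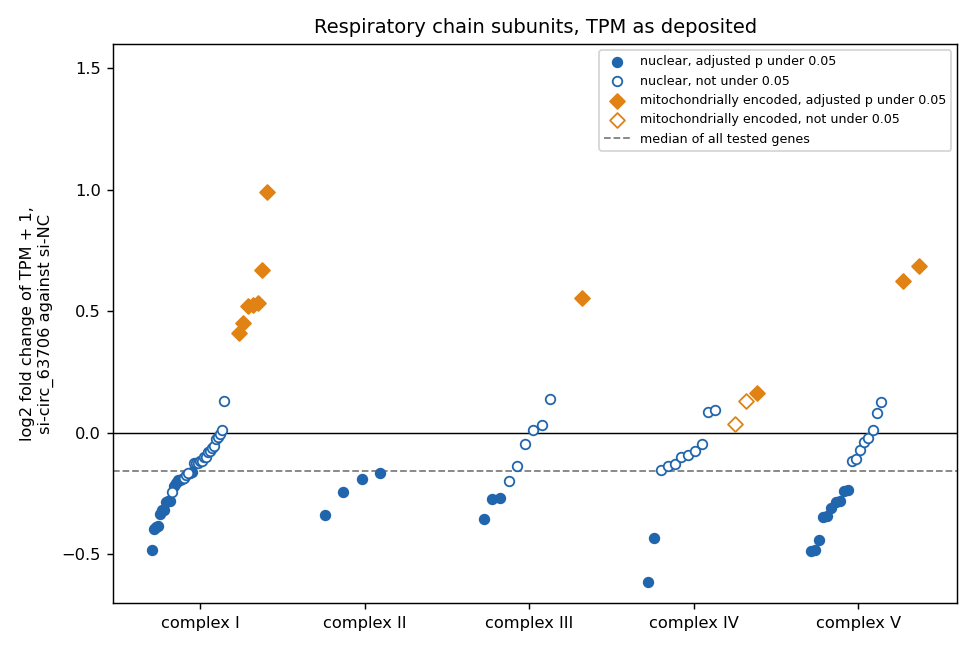
The y axis gives the log2 fold change of TPM + 1, si-circ_63706 against si-NC, for each tested nuclear gene (blue circles) and each mitochondrially encoded subunit (orange diamonds) in order within its complex; filled symbols passed the limma test, and the dashed line is the median of all tested genes. The 36 filled nuclear genes lie below 0 in every complex, COX8A being the lowest at -0.61, and the mitochondrially encoded subunits lie above 0.

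Summed over the 87 genes, the chain had 5354 and 5380 TPM with si-NC against 4702, 4958 and 5079 TPM with si-circ_63706, a mean of 91.5% of that with si-NC. As a share of the TPM of nuclear protein-coding genes, the sums were 1.88% and 1.89% against 1.91%, 1.94% and 1.93%. The groups did not overlap on either scale, and the direction turned with the scale. Complex II was below si-NC on both, at 85.7% of the si-NC mean in TPM and 95.7% as a share, and complexes III, IV and V were below in TPM (94.2%, 92.2% and 92.5%) and above as a share (105.2%, 103.0% and 103.4%). Complex I was at 90.0% in TPM and 100.5% as a share. As a share the groups overlapped for complex I and for complex IV, where si-NC had 0.3797% and 0.3847% and si-circ_63706 0.384%, 0.4001% and 0.3966%.

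**Figure D2:**
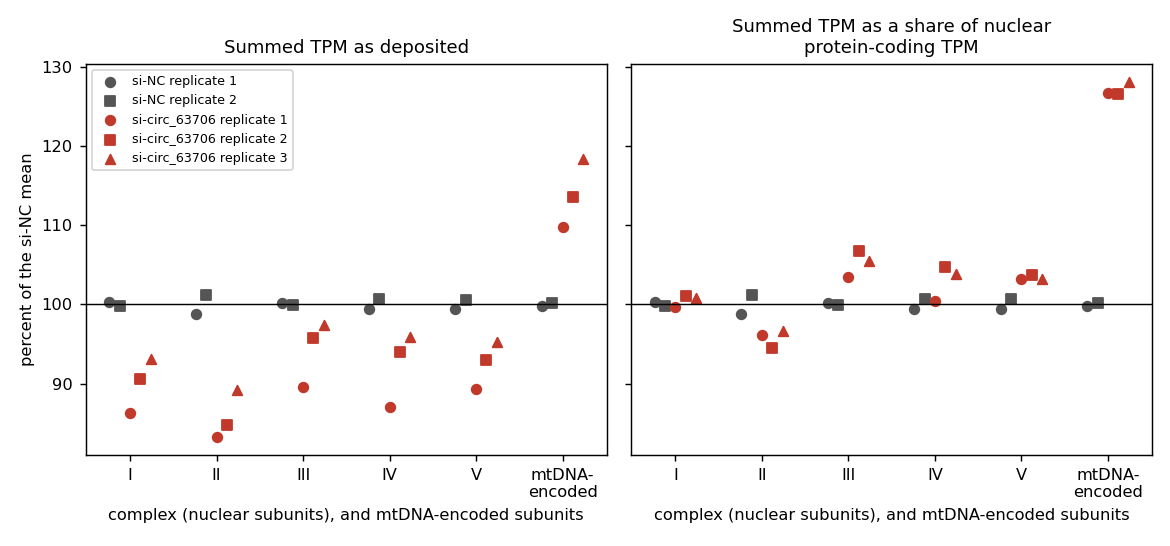
Each point is the summed TPM of a complex in 1 library as a percent of the si-NC mean, in TPM as deposited (left) and as a share of nuclear protein-coding TPM (right), with the mitochondrially encoded subunits beside them. Complex II is below 100% in the si-circ_63706 libraries in both panels, and the mitochondrially encoded subunits are above it in both.

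In complex I, the NADH dehydrogenase, 17 of 37 tested genes were lower and none higher, with a median of -0.165, and after centring 5 were lower and 4 higher. Its 7 nuclear core subunits carry the flavin and the iron-sulfur clusters that take electrons from NADH to ubiquinone. Of the 7, 5 were lower, among them NDUFS7 and NDUFV1, and NDUFS3 (-0.16, adjusted p = 0.0591) and NDUFS8 (-0.17, adjusted p = 0.089) did not pass. In all 7 the groups did not overlap, where 55.2% of all tested genes had no overlap with si-circ_63706 lower and 35.4% were called lower. NDUFS7, which holds the last cluster before ubiquinone, was at 30.31 and 26.27 TPM with si-NC and at 18.3, 20.97 and 20.51 TPM with si-circ_63706. Its means were 28.3 ± 2.86 (SD, n = 2) and 19.9 ± 1.43 TPM (SD, n = 3), a fold change of -0.48 (SE 0.0833, adjusted p = 0.00657), and it was the only core subunit that stayed lower after centring (-0.32, adjusted p = 0.0257). NDUFV1, the NADH-binding subunit with the flavin, had a fold change of -0.32 (SE 0.0466, adjusted p = 0.00401) and -0.16 after centring (adjusted p = 0.0718).

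Of the 29 other complex I subunits, which surround the core, 12 were lower, with a median of -0.13, where 35.4% of all tested genes were lower. NDUFA2 was at 15.02 and 14.23 TPM against 9.63, 11.46 and 11.6 TPM (-0.40, SE 0.0853, adjusted p = 0.0132). It overlaps IK on the opposite strand, which had a mean of 91.1 TPM, and without the strand of the counts the reads of the 2 genes cannot be told apart. The same limit applies to other lower genes, such as NDUFB11 with RBM10 (mean 15.0 TPM), SDHD with TIMM8B (20.7 TPM) and NDUFS1 with EEF1B2 (310.1 TPM). NDUFA9, which lies near the ubiquinone site, was at 49.98 and 50.93 TPM against 36.54, 37.62 and 41.03 TPM (-0.39, SE 0.0591, adjusted p = 0.00456). NDUFB11, a membrane arm subunit, was at 23.39 and 21.4 TPM against 16.63, 17.16 and 16.9 TPM (-0.39, SE 0.0542, adjusted p = 0.00358). NDUFA2, NDUFA9 and NDUFB11 had no overlap between the groups and stayed lower after centring. At the other end, NDUFB1, also in the membrane arm, was at 80.14 and 80.08 TPM against 83.33, 85.98 and 94.14 TPM. Each of its si-circ_63706 libraries was above each si-NC library, but its fold change of 0.13 did not pass as deposited (SE 0.0598, adjusted p = 0.13) and did after centring (0.29, adjusted p = 0.00496). NDUFC1 was next, at 0.01 (adjusted p = 0.895). NDUFA13, NDUFB5 and NDUFB9 were also higher after centring, although their values as deposited were -0.02, 0.00 (-0.00425) and -0.06. The ratio of NDUFS7 to NDUFB1, which no scaling of a library changes, was 0.378 and 0.328 with si-NC and 0.22, 0.244 and 0.218 with si-circ_63706.

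All 4 genes of complex II, succinate dehydrogenase, were lower, and in each the groups did not overlap. Among all tested genes 35.4% were lower, and 55.2% had no overlap with si-circ_63706 lower. SDHA, the flavoprotein that oxidizes succinate, was at 28.2 and 27.11 TPM with si-NC and at 21.45, 20.91 and 22.56 TPM with si-circ_63706 (-0.34, SE 0.0518, adjusted p = 0.00452). SDHB, the iron-sulfur subunit, was at 75.78 and 76.44 TPM against 63.18, 66.57 and 70.28 TPM (-0.19, SE 0.0546, adjusted p = 0.0345). SDHC and SDHD anchor these 2 in the membrane. SDHC was at 19.65 and 22.32 TPM against 17.54, 17.29 and 17.76 TPM (-0.24, adjusted p = 0.0237), and SDHD at 33.3 and 34.79 TPM against 29.93, 29.84 and 31.02 TPM (-0.16, adjusted p = 0.0318). After centring only SDHA stayed lower (-0.18, adjusted p = 0.0291), while SDHB was at -0.03 (adjusted p = 0.585), SDHC at -0.09 (adjusted p = 0.316) and SDHD at 0.00 (-0.00364, adjusted p = 0.948). With no minimum TPM 1 of the 4 passed, and with the replicate block 2 did. SDHA has 3 annotated pseudogenes whose summed TPM was 29.1% of its own, so that reads shared with them make its level uncertain.

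In complex III, which passes electrons from ubiquinol to cytochrome c, 3 of 9 genes were lower as deposited and none after centring. Among all tested genes 35.4% were lower as deposited and 15.2% after centring. UQCRC1, a core protein of the matrix side, was at 58.74 and 60.01 TPM against 41.94, 49.2 and 47.91 TPM (-0.35, SE 0.0733, adjusted p = 0.0117, and -0.19 after centring, adjusted p = 0.0508). UQCRFS1, the Rieske iron-sulfur protein, was at 12.06 and 11.89 TPM against 9.46, 10.02 and 9.89 TPM (-0.27, SE 0.0507, adjusted p = 0.0088). UQCR11, a small subunit, had a fold change of -0.27 (adjusted p = 0.016), and it shares its strand with an overlapping gene that had a mean of 20.8 TPM. UQCRB, the ubiquinone-binding subunit, was at 98.5 and 99.17 TPM against 103.72, 111.87 and 111.89 TPM. It had the highest fold change of the 79 genes, 0.14, which did not pass as deposited (SE 0.0497, adjusted p = 0.063) and did after centring (0.31, adjusted p = 0.00278). UQCRC1 and UQCRB sit in the same enzyme, and their ratio was 0.596 and 0.605 with si-NC and 0.404, 0.44 and 0.428 with si-circ_63706. UQCRHL (0.03, adjusted p = 0.772) and UQCRH (-0.05, adjusted p = 0.465) share 269 of 273 coding bases, so that their reads may have been split between them.

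In complex IV, cytochrome c oxidase, 2 of 11 tested genes were lower, fewer than in any other complex, but these included the lowest of all 79. Among all tested genes 35.4% were lower. COX8A, a small subunit that spans the membrane, at position 63974607 to 63976543 of chromosome 11 (GRCh38), was at 107.05 and 103.29 TPM with si-NC and at 62.92, 69.31 and 73.47 TPM with si-circ_63706. Its mean fell from 105.2 ± 2.66 (SD, n = 2) to 68.6 ± 5.31 TPM (SD, n = 3), or 65.2% of si-NC, a fold change of -0.61 (SE 0.0696, adjusted p = 0.00195) and -0.45 after centring (adjusted p = 0.00311). COX5A, a matrix-side subunit, was at 55.69 and 57.6 TPM against 40.41, 40.36 and 44.26 TPM (-0.43, SE 0.0561, adjusted p = 0.00276, and -0.27 after centring, adjusted p = 0.00638). The third lowest of the 11, COX7B2, a paralogue of COX7B, had a fold change of -0.15 that did not pass (adjusted p = 0.176). COX4I1, a subunit of the same enzyme outside the name rule, lay between COX5A and COX7B2 at -0.21 (adjusted p = 0.0176). COX7B was at 40.01 and 38.86 TPM against 40.78, 43.24 and 42.38 TPM (0.09, adjusted p = 0.155) and COX7C at 170.24 and 185.71 TPM against 178.94, 193.67 and 194.59 TPM (0.09, adjusted p = 0.285). Both are small membrane subunits, and both were higher after centring, with COX7A2L, which takes part in supercomplex formation. COX8A was at 0.629 and 0.556 of the TPM of COX7C with si-NC and at 0.352, 0.358 and 0.378 with si-circ_63706. NDUFA4, which has a complex I name but is a subunit of complex IV, had a fold change of -0.08 (adjusted p = 0.235).

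In complex V, ATP synthase, 10 of 18 tested genes were lower, against 35.4% of all tested genes. Of the 10 lower genes, ATP5S and ATP5J2-PTCD1 are not subunits. The others are described by the part of the enzyme they belong to. The c ring, the rotor that protons turn, is made of identical copies of the c subunit, which 3 genes encode. ATP5G1 was at 28.91 and 29.66 TPM against 22.1, 19.38 and 20.49 TPM (-0.49, SE 0.063, adjusted p = 0.0028). ATP5G2 was at 131.1 and 126.5 TPM against 92.18, 95.74 and 96.18 TPM (-0.44, SE 0.0436, adjusted p = 0.00149). ATP5G3 was at 78.99 and 75.78 TPM against 58.04, 63.4 and 61.06 TPM (-0.34, SE 0.0524, adjusted p = 0.00457). All 3 were thus lower with no overlap between the groups, and they stayed lower after centring, at -0.33 (adjusted p = 0.0229), -0.28 (adjusted p = 0.0038) and -0.18 (adjusted p = 0.0285). Among all tested genes, 55.2% had no overlap with si-circ_63706 lower, and 15.2% were lower after centring.

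The 3 genes lie on different chromosomes, ATP5G1 at position 48892765 to 48895871 of chromosome 17, ATP5G2 at 53632726 to 53677408 of chromosome 12 and ATP5G3 at 175176258 to 175184607 of chromosome 2 (GRCh38). They differ in the import sequence that is cut off in the mitochondrion, and their last 77 codons encode the same residues. The last 60 coding bases before the stop codon are shown because reads over this stretch could only be assigned by synonymous differences, and capitals mark the 18 positions at which the 3 genes are not all alike.
ATP5G1: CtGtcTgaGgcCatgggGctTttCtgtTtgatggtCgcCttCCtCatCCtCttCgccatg
ATP5G2: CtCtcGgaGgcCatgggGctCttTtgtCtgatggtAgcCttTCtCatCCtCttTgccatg
ATP5G3: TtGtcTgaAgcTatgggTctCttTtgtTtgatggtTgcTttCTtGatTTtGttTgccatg
Over the 231 bases of these codons, ATP5G1 and ATP5G2 had 88.3% of bases alike and either of them had 80.1% alike with ATP5G3. ATP5G2 held the largest share of the summed c ring TPM in every library, 0.549 and 0.545 with si-NC and 0.535, 0.536 and 0.541 with si-circ_63706. The sum itself was 239.0 and 231.9 TPM with si-NC against 172.3, 178.5 and 177.7 TPM with si-circ_63706, whose mean was 74.8% of that with si-NC. Since TPM is corrected for transcript length, the sum can still change with how reads were split among the 3 genes.

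Of the 5 genes of the F1 head, where ATP is made, ATP5A1, ATP5B, ATP5C1 and ATP5D were lower and ATP5E was not (-0.04, adjusted p = 0.679). After centring only ATP5B stayed lower. ATP5A1 was then at -0.07 (adjusted p = 0.0963), ATP5C1 at -0.07 (adjusted p = 0.199) and ATP5D at -0.12 (adjusted p = 0.293). ATP5B, the catalytic beta subunit, was at 208.15 and 205.72 TPM against 161.9, 167.37 and 170.56 TPM (-0.31, SE 0.0426, adjusted p = 0.0033, and -0.15 after centring, adjusted p = 0.0134). Of the 4 tested genes of the peripheral stalk, which holds the head still, only ATP5O was lower (-0.28, adjusted p = 0.012), and ATP5F1 was at 0.01 (adjusted p = 0.857). After centring ATP5O no longer passed (-0.12, adjusted p = 0.0636), and ATP5F1 was higher (0.18, adjusted p = 0.0112). None of the 3 tested accessory subunits that lie beside the ring in the membrane was lower. ATP5J2 was at 288.26 and 299.72 TPM against 316.01, 321.92 and 325.86 TPM, with no overlap between the groups (0.13, SE 0.0422, adjusted p = 0.0523, and 0.29 after centring, adjusted p = 0.00278). ATP5I was at 125.63 and 128.23 TPM against 126.51, 133.71 and 143.06 TPM, where the groups overlapped (0.08, adjusted p = 0.315, and 0.25 after centring, adjusted p = 0.00663). The summed c ring was at 0.493 and 0.462 of the summed accessory subunits with si-NC and at 0.337, 0.34 and 0.325 with si-circ_63706, and the F1 head at 0.887 and 0.859 against 0.673, 0.688 and 0.677.

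**Figure D3:**
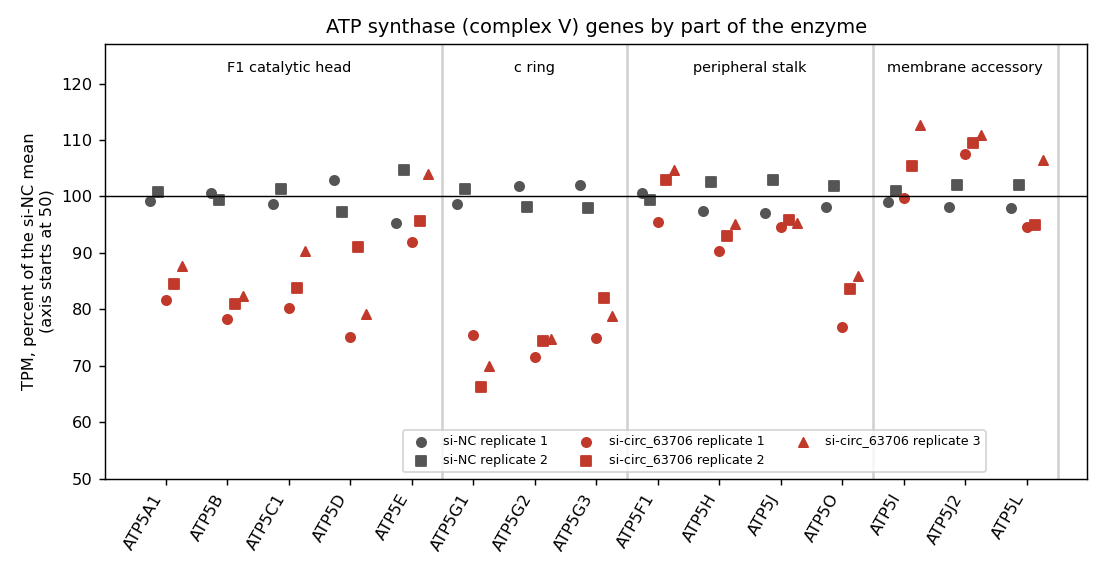
The TPM of 15 tested ATP synthase subunit genes in each library is shown as a percent of the si-NC mean (y axis from 50), grouped by the part of the enzyme and without ATP5S, ATP5SL and ATP5J2-PTCD1. Of the genes shown, the 3 of the c ring have the lowest means in the si-circ_63706 libraries (red), 70.5%, 73.5% and 78.6%, while those of ATP5J2 lie above both si-NC libraries (grey), with a mean of 109.3%.

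Some genes that carry these names are not subunits or gave too little signal. ATP5S and ATP5SL, now DMAC2L and DMAC2, are no longer counted as ATP synthase subunits, and of these ATP5S was lower (-0.35, adjusted p = 0.00836) and ATP5SL was not (-0.12, adjusted p = 0.114). ATP5J2-PTCD1, a readthrough of 2 neighbouring genes, was at 3.87 and 3.18 TPM against 2.27, 2.01 and 2.41 TPM (-0.48, adjusted p = 0.0101) and shares exons with ATP5J2. Without these, the readthrough NDUFC2-KCTD14 and ATP5EP2, which has a pseudogene's name, 34 of 76 tested genes were lower. Not tested, with means under 1 TPM, were ATP5EP2, ATP5L2, COX6A2, COX6B2, COX7A1, COX8C, NDUFA4L2 and NDUFC2-KCTD14. Among them are 4 of the 5 members listed as forms of complex IV subunits typical of heart, muscle or testis. These 4, COX6A2, COX6B2, COX7A1 and COX8C, were at 0.22 TPM or less in every library. The other, COX7B2, was tested and was at 14.49 to 17.7 TPM. A further 147 non-coding genes, mostly pseudogenes, share the names and summed to 11.92 and 10.04 TPM with si-NC against 8.65, 8.03 and 10.05 TPM with si-circ_63706.

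Some subunits have symbols outside the rule. NDUFAB1, the acyl carrier protein of complex I, was at 27.83 and 27.99 TPM against 18.13, 20.06 and 21.43 TPM (-0.47, SE 0.0723, adjusted p = 0.00457). CYC1, cytochrome c1 of complex III, had a fold change of -0.35 (adjusted p = 0.00779) and COX4I1 of complex IV -0.21 (adjusted p = 0.0176), and COX4I2 was listed at 0. CYCS, the soluble electron carrier cytochrome c, was at -0.02 (adjusted p = 0.744). NDUFAB1 and CYC1 stayed lower after centring, COX4I1 did not (-0.05), and CYCS was then higher (0.14).

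The 13 subunits encoded by the mitochondrial genome went the other way. Of these 11 were higher and none lower, with a median of 0.53, and after centring all 13 were higher. Among all tested genes 4.16% were higher as deposited and 12.3% after centring. MT-ND6, the complex I subunit on the other strand of that genome, was at 23.35 and 24.54 TPM against 46.83, 48.63 and 50.49 TPM (0.99, SE 0.0516, adjusted p = 0.000552). MT-ATP6 and MT-ATP8, the mitochondrially encoded subunits of complex V, were at 0.62 (adjusted p = 0.00168) and 0.69 (adjusted p = 0.00193), in the same enzyme as the lower c ring. MT-CO3, a core subunit of complex IV, was at 2076.7 and 2033.99 TPM against 1976.69, 2123.53 and 2230.69 TPM and did not pass (0.04, adjusted p = 0.669). As deposited, the nuclear and the mitochondrial subunits had medians of opposite sign, -0.165 and 0.53 in complex I, -0.14 and 0.55 in complex III, -0.10 and 0.13 in complex IV and -0.24 and 0.66 in complex V. The sign of the nuclear medians depended on the scaling, since after centring they were -0.0028, 0.0228, 0.0658 and -0.073 in the same order, with mitochondrial medians of 0.69, 0.72, 0.30 and 0.82. The 13 genes summed to 5455 and 5476 TPM with si-NC and to 5996, 6207 and 6468 TPM with si-circ_63706. TPM cannot tell more mitochondrial genomes from more transcripts of each.

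Assembly factors are not part of the finished complexes but are needed to build them. Of 52, 22 were lower (42.3%) and 2 higher, with a median of -0.19, and after centring 7 were lower and 6 higher. The share of lower genes among all tested genes was 35.4% as deposited and 15.2% after centring. PET117, a factor for complex IV, was at 4.89 and 4.95 TPM against 2.86, 2.54 and 2.84 TPM (-0.66, SE 0.0681, adjusted p = 0.00162), lower than any subunit. COA6, which serves copper delivery to complex IV, was at -0.44 (adjusted p = 0.00218) and ATPAF1, which helps to assemble the F1 head, at -0.42 (adjusted p = 0.00374). The 2 that were higher, NDUFAF2 (0.26, adjusted p = 0.0375) and C17orf89, also called NDUFAF8 (0.20, adjusted p = 0.0309), both serve complex I.

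Of 11 tested regulators of mitochondrial biogenesis, 2 were lower and 1 higher. ESRRA, a nuclear receptor that activates genes of oxidative metabolism, was at 6.81 and 6.3 TPM against 4.63, 4.91 and 5.37 TPM (-0.34, SE 0.0733, adjusted p = 0.0133), and POLRMT, the mitochondrial RNA polymerase, was at -0.23 (adjusted p = 0.0183). TFAM, which packages mitochondrial DNA and activates its transcription, was at 15.43 and 17.28 TPM against 18.38, 19.58 and 18.71 TPM (0.20, SE 0.0626, adjusted p = 0.0458). The factors NRF1 (-0.21, adjusted p = 0.0574), GABPA (-0.13, adjusted p = 0.102) and the coactivator PPARGC1A (0.21, adjusted p = 0.104) did not pass. After centring ESRRA and POLRMT no longer passed, and TFAM, PPARGC1A and TFB2M, a mitochondrial transcription factor, were higher. Of 13 citric acid cycle enzymes, which feed the chain, 8 were lower and none higher, with MDH2, the malate dehydrogenase of mitochondria, the lowest at -0.52 (adjusted p = 0.00111), and after centring 2 were lower. For scale, 23 of 85 cytosolic ribosomal protein genes, also short and abundant, were lower and 5 higher, with a median of -0.08. Of all tested genes 35.4% were lower and 4.16% higher.

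The promoters of many respiratory chain genes hold sites for the transcription factors NRF1, GABPA and YY1. RefSeq promoter windows (GRCh38.p14, 250 bases before to 50 after the start) were matched for 67 of the 87 genes. The NRF1 motif, searched on both strands as GCGCA followed by any base and then GCGC, was in 16 of the 67 windows (23.9%), against 6.98% of the windows of 27305 genes and 14.1% of those of tested protein-coding genes. Of the 15 tested genes that had it, 12 were lower, with a median of -0.24, and of the 48 without it 16 were lower, with a median of -0.13. All tested protein-coding genes with the motif had a median of -0.183. With or without it, tested protein-coding genes had a median of -0.161, and 37.7% were lower. Whether the motif bears on the fold changes was not tested. The ETS motif CCGGAAG, bound by GABPA, was in 28.4% of the windows (12.2% of all and 24.1% of those of tested protein-coding genes), and 8 of 19 genes with it were lower. The YY1 motif AAGATGGC was in 17.9% (3.52% of all and 6.92% of tested), and 5 of 12 were lower. All tested protein-coding genes with the ETS motif had a median of -0.174, and those with the YY1 motif -0.159. The NRF1 sites of the 4 lowest genes with one, NDUFA9, UQCRC1, SDHA and NDUFA8, and of the 2 highest, ATP5I and UQCR10, are shown with 10 bases on each side on the strand of the gene. Capitals mark the motif.
NDUFA9: ttcttggttaGCGCTTGCGCagacaggcga
UQCRC1: gtacggtactGCGCCTGCGCcgcgaccgcc
SDHA: ggtccgctttGCGCAGGCGCggcgccccca
NDUFA8: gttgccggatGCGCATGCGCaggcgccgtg
ATP5I: cgcagcaactGCGCAGGCGCagccgatgat
UQCR10: gtcggccccaGCGCAGGCGCggtggcgcga
They lie at chr12:4649024-4649053 (plus strand), chr3:48609674-48609703 (minus), chr5:218144-218173 (plus), chr9:122159764-122159793 (minus), chr4:674476-674505 (minus) and chr22:29767351-29767380 (plus). SDHA, which was lower at -0.34, has the same 10 letters as ATP5I (0.08, adjusted p = 0.315) and UQCR10 (0.01, adjusted p = 0.897). A match of letters is a description of the window and not a bound site.

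The fold change went with the length of the coding sequence in these genes in a way it did not among all genes. Across the 79 genes Spearman's rho was -0.43 (Pearson's r -0.349), and across 11248 protein-coding genes rho was 0.112. These are descriptions across genes, which share libraries and are not independent replicates. Of the 11 genes with more than 1000 coding bases 9 were lower, with a median of -0.31, and of the 20 with at most 300 bases 4 were lower, with a median of -0.09. Of all protein-coding genes in these classes 35.1% and 36.3% were lower. The longest of the 79, ATP5J2-PTCD1 (2250 bases, lower at -0.48), is a readthrough and not a subunit, and rho includes it. The short class holds COX7C (192 bases), ATP5I (210 bases) and ATP5J2 (267 bases), which were above 0, but also COX8A (210 bases), the lowest. With the GC content of the coding sequence, rho was -0.336 across the 79 genes and -0.327 across all. Transcript length enters TPM itself, and its part in the fold changes was not tested.

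**Figure D4:**
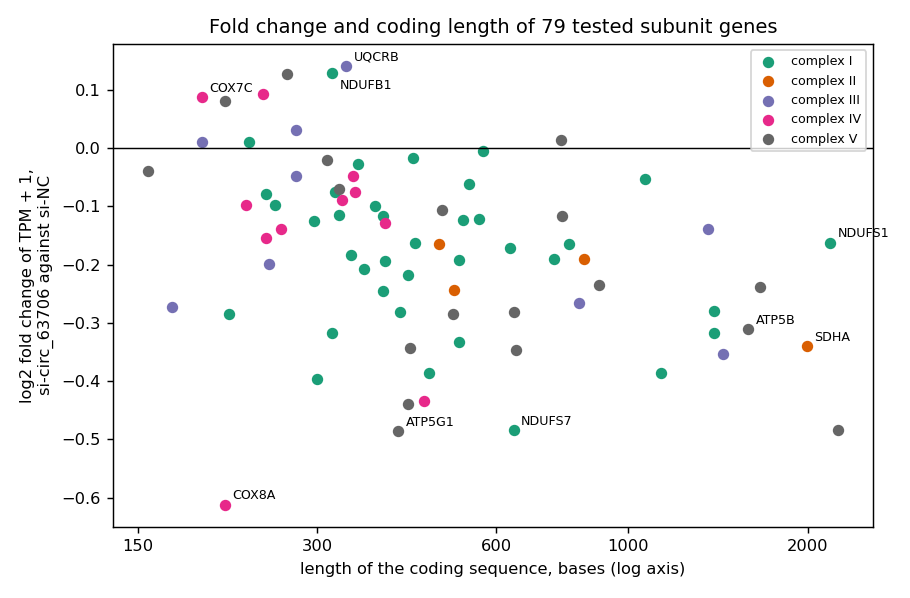
Each point is 1 of the 79 tested genes, with the length of its coding sequence in bases (x axis, log scale) and its log2 fold change of TPM + 1, si-circ_63706 against si-NC (y axis), coloured by complex. The genes above 0 are mostly short, and COX8A is a short gene at -0.61.

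An siRNA can also act on transcripts that match bases 2 to 8 of its guide strand, its seed. The 7-base sites TGAAGGA and CTGAAGG, which pair with the seeds of the 2 siRNAs against circ_63706, were searched for in the annotated 3′ ends of the transcripts after the stop codon. Of the 79 genes 10 had a site (12.7%, against 27.1% of 11182 protein-coding genes), and 4 of the 10 were lower, NDUFA9, NDUFS1, SDHC and COX5A, against 32 of the 69 without a site. Of all protein-coding genes 1142 of 3031 with a site and 3078 of 8151 without were lower. The medians of the subunit genes were -0.131 with and -0.165 without a site, and those of all protein-coding genes -0.162 and -0.159.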

How the data were processed

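Total RNA of DAOY cells gave 5 libraries. TPM of 60504 genes, rounded to 2 decimals, was deposited by the authors as 1 table. Per the submitters' processing notes, cutadapt 2.3, STAR 2.7.0d and RSEM 1.3.1 were used with hg38, and the annotation release and the strand setting are not given in the sources used here. Each library sums to 1000000 TPM. The table gives no counts, so the depth is unknown and no counting intervals were computed.

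Libraries were grouped by their labels. Genes with a mean of at least 1 TPM were fitted with limma 3.58.1 in R 4.3.3 on log2(TPM + 1), without covariates, moderated along a mean-variance trend, and p-values were adjusted over all tested genes by Benjamini-Hochberg (two-sided, threshold 0.05), and the pseudocount makes fold changes of low genes too small. The procedure was tested on simulated data. Positions, coding lengths and overlaps came from GENCODE 29, which holds all 87 genes, and promoters from RefSeq. Python 3.11.15 was used for the rest.

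Genes named are the 3 lowest and 2 highest of complexes I, III, IV and V, all of complex II, those with the roles described, those not tested, the lowest and highest called genes of the other lists, and NRF1, GABPA, PPARGC1A and ESRRA. Others, such as those changed only after centring, in every setting, or holding a motif or seed site, were named after their values were seen. Some genes that the rule would name are not reported here. The members and lists were chosen with earlier results of these data known. The alternatives were another pseudocount or minimum, 3 other scalings, other variance models, a block for the replicate number and leaving out each library. The replicate numbers were checked for pairing.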

Additional observations from a re-analysis of the deposited data

How the results depend on the processing

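The count of lower subunit genes, 36 as reported, was 36 with a pseudocount of 0.1, 40 with a minimum of 5 TPM, 30 without a trend and 32 with the replicate block, and it moved under other settings, for which the cause was not tested unless given. With no minimum TPM, where 41817 genes in place of 12710 were tested, 18 were lower, 8 in complex I, 1 in complex II, 1 in complex III and 6 in complex V, with COX5A and COX8A in complex IV. Array quality weights gave 41 lower and 2 higher genes, with 5 lower and 1 higher in complex III, 1 higher beside lower genes such as ATP5B in complex V, and NDUFC1 at -0.0123. Without a trend 2 genes of complex II were lower.

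Other scalings level the libraries by construction. Centring gave 14 lower and 13 higher genes (5 and 4 in complex I, 1 lower in complex II, 0 and 3 in complex III, 2 and 3 in complex IV, 6 and 3 in complex V) and a median of -0.0025. Quantile normalization gave 12 and 7 (4 and 2 in complex I, 1 lower in complex II, 0 and 1 in complex III, 5 and 2 in complex V) and a median of -0.0113. In complex IV 2 were then higher, and COX5A and COX8A were lower. Rescaling to nuclear protein-coding genes gave 18 and 13 (7 and 4 in complex I, 1 lower in complex II, 1 and 3 in complex III) and a median of -0.00868. In complex IV 2 were then higher, and COX5A and COX8A were lower. In complex V 4 were higher, and ATP5B, ATP5G1, ATP5G2, ATP5G3, ATP5O, ATP5S and ATP5J2-PTCD1 were lower. Small negative fold changes turned positive under centring, quantile normalization and rescaling, in this order: ATP5E at 0.12, 0.136 and 0.118, ATP5H at 0.0579, 0.0214 and 0.0525, ATP5J at 0.0948, 0.06 and 0.0897, ATP5L at 0.142, 0.118 and 0.138, ATP5SL at 0.0429, 0.0576 and 0.0384, COX7A2L at 0.114, 0.117 and 0.11, NDUFA4 at 0.0831, 0.0789 and 0.0791, and UQCRC2 at 0.0228, 0.014 and 0.0174. COX7B2 turned under centring (0.00183) and quantile normalization (0.0156), and NDUFS1 under quantile normalization (0.00852).

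Leaving out 1 library at a time, 14 to 40 genes were lower and 0 to 2 higher, the low counts being those without si-NC replicate 1 (14) or replicate 2 (16), which leave 1 control library that is assumed to vary like the others. By complex, 5 to 19 were lower in complex I, 1 to 4 in complex II, 0 to 4 in complex III (0 to 1 higher), 2 to 4 in complex IV and 5 to 9 in complex V (0 to 1 higher). Fold changes near 0 changed sign: ATP5E ranged from -0.104 to 0.0256, ATP5F1 from -0.0131 to 0.053, ATP5L from -0.0761 to 0.00781 and NDUFC1 from -0.00567 to 0.0355.

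Deviations of libraries with the same replicate number correlated at 0.0144 and 0.0264, so the numbers were not taken to pair the libraries. With the replicate block, which leaves si-circ_63706 replicate 3 without a partner, 32 genes were lower, 29 of them shared with the 36, none was higher, 2 were lower in complex II, and ATP5F1 (-0.0131) and NDUFC1 (-0.000574) turned negative. With 2 and 3 libraries and no counts, small differences could not be resolved, and values near 0 TPM are limited by rounding to 2 decimals.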
